A study of Drosophila melanogaster with 2 samples.

Results

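The cytosolic ribosomal protein genes of Drosophila melanogaster encode the proteins of the large and small subunits of the cytosolic ribosome. They were taken as the protein-coding genes whose symbol starts with RpL or RpS. The rule gave 92 genes of the 13986 protein-coding genes of the annotation, of which 13945 lie on the chromosome arms that hold candidate regions. The 92 genes are 54 large subunit genes, 4 of them with an RpLP symbol, and 38 small subunit genes. The RpLP symbol is shared by genes of the ribosomal stalk and its base and by RpLP0-like, and the figures label all 4 as stalk. The rule also takes in a few genes named for their likeness to a ribosomal protein, such as RpLP0-like and RpL24-like, whose relatives in yeast assist ribosome assembly.

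The binding data are from ChIP-seq, in which DNA precipitated with a protein is sequenced, on embryos of 0 to 16 h, both sexes pooled, from the strain CG9437-GFP. This line stably carries CG9437 with green fluorescent protein at its C terminus, and the labels tie the insertion to hng1, which encodes a MADF-BESS domain DNA-binding protein. The 2 biological replicates form 1 group, so conditions could not be compared, and read depth is not given in the sources used here. A free-text label names the samples as input controls, while the assay, antibody and output labels describe a transcription factor ChIP, and the lists are read here as ChIP peaks. The promoter driving the transgene is not given in the sources used here, and signal from whole embryos cannot be assigned to a cell type.

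Ribosomal protein genes are transcribed in every growing cell, and their products are needed in matched amounts. Many fly ribosomal protein genes are Minute loci, at which loss of 1 copy slows development and shortens the bristles. Their promoters typically lack a TATA box and start transcription within a run of pyrimidines, the TCT initiator. The DNA replication-related element, bound by the factor Dref, and Motif 1, bound by M1BP, are known from promoters of housekeeping and ribosomal protein genes. Several ribosomal proteins have a second gene in the fly, and some second copies, such as RpL22-like in testis and RpS5b in ovary, are known for expression in the gonads.

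The sequences that follow are shown because the summits lay close to the start site and carried different words from the strongest peaks of the data set. They are from the RefSeq dm6 genome on the gene's strand, 5′ to 3′, from 120 bases before the transcription start site (TSS) to 24 bases after it. Capitals mark ATCGAT (the core of the Dref element), CGATA and CCGGAA on either strand, and a TCT initiator (CTTTC or CTTTT on the gene strand, starting within 10 bp of the TSS). ATCGAT and CGATA overlap in TATCGATA, and adjoining words run together in capitals. RpS10b and RpL28 held the Dref core, and RpL14 and RpL13A held CCGGAA. The promoters are RpS10b at chrX:19597911-19598055 (plus strand), RpL28 at chr3L:3222936-3223080 (minus), RpL14 at chr3L:8600886-8601030 (plus) and RpL13A at chr3R:5624354-5624498 (plus).
RpS10b: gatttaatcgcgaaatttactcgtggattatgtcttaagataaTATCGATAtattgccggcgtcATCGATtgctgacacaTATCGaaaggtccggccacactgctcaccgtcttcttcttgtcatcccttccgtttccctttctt
RpL28: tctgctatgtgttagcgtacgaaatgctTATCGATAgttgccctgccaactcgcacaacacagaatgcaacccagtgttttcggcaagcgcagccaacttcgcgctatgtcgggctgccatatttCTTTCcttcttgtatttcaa
RpL14: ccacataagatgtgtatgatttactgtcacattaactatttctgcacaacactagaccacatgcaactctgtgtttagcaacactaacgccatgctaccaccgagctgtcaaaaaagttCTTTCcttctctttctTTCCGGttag
RpL13A: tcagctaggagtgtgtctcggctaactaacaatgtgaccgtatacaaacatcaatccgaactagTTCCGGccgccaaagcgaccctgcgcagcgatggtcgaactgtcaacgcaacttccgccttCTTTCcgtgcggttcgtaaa

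For contrast, the 101 bases centred on the summit at larp, an RNA-binding protein gene outside the family, are given on its strand from chr3R:28335639-28335739 (minus). Its final peak ranked 3 with a signal of 18400, and the summit lay 148 bp upstream of the TSS (position -148). Here the capitals mark ACGTAA, which reads as TTACGT on this strand and occurs at 2 places.
larp: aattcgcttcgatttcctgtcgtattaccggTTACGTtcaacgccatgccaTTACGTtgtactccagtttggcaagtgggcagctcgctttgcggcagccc

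Most ribosomal protein promoters carried a peak, and both subunits did so. A gene was counted where a summit lay within 500 bp of any of its annotated TSSs, and the final list holds the 6091 of 30000 pooled candidates with the highest signal. In all, 69 of the 92 genes had a final peak (75.0%, exact Clopper-Pearson 95% interval 64.9% to 83.4%), beside 25.2% of all 13945 protein-coding genes. Of the 85 with a pooled candidate, 81.2% were in the final list, beside 49.8% of the 7055 genes with a candidate. A further 16 genes had a candidate that was not final, and 7 had none. These intervals cover counting over genes only, and no test was made because the genes were chosen with earlier results of these data known.

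The large and small subunit genes differed little in this count, and more among stronger peaks. With the higher-signal 3045 final peaks the shares were 66.7% of large and 47.4% of small subunit genes. Within the first 1000 ranks lay 9 large and 2 small subunit genes. A final peak was found at 42 of 54 large subunit genes (77.8%, 64.4% to 88.0%) and at 27 of 38 small subunit genes (71.1%, 54.1% to 84.6%). All 4 RpLP genes (RpLP0, RpLP0-like, RpLP1 and RpLP2) were among the 42. Median final signal, the authors' value for each peak, was 374 for the large and 365 for the small subunit genes, with median ranks of 1840.5 and 1910 counted from the strongest peak. The 73 mitochondrial ribosomal protein genes, which serve a separate ribosome, had 43 with a final peak (58.9%), at a median signal of 369.

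The peaks were frequent but not among the strongest. Median signal over the 69 genes was 367 (range 150 to 1563.1), against 310 over all 3511 protein-coding genes with a final promoter peak, and the median rank was 1893 against 2363. No ribosomal protein gene ranked 200 or better, whereas 207 protein-coding genes had a promoter peak of that rank. Within the first 1000 ranks lay 11 of the 69 (15.9%), beside 24.3% of the 3511. Over the whole final list, at promoters or elsewhere, signals ran on to 19974.

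**Figure D1:**
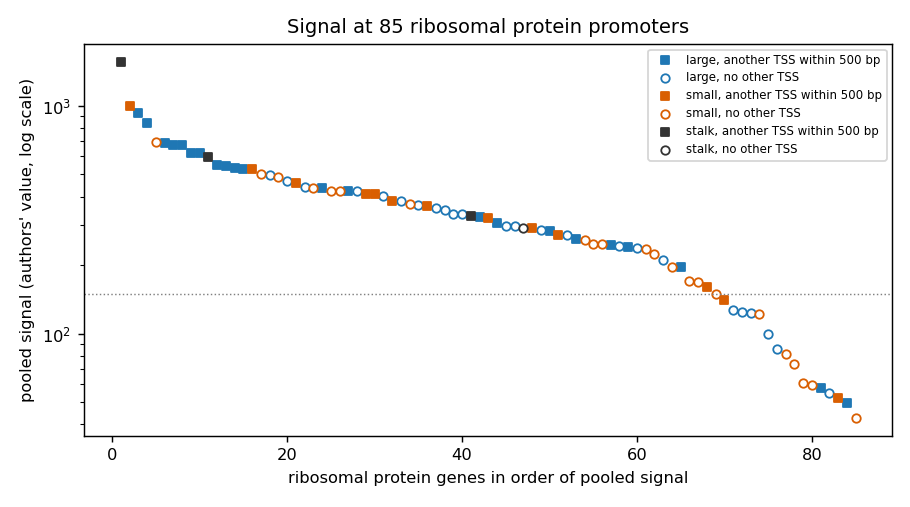
Pooled signal (authors' value, log axis) of the 85 ribosomal protein genes with a pooled candidate, in falling order; colour gives the subunit, squares mark genes with another protein-coding TSS within 500 bp of the summit and open circles those with none. The dotted line is the lowest final signal of the family, 150, and 9 of the 10 strongest genes are squares.

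The strongest peak lay at RpLP1, which encodes an acidic protein of the ribosomal stalk. Its signal was 762 in replicate 1 (rank 255), 831 in replicate 2 (rank 196) and 1563.1 in the pooled and final lists (rank 213). The summit, at base 419709 of chromosome 2L, lay at -243 from the RpLP1 TSS and 57 bp from that of CG13690, so the peak cannot be given to one of these genes. Signals from different lists are not on 1 scale, and ranks are the values to compare between lists.

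RpS27, a zinc-binding protein of the small subunit, followed with signals of 660 in replicate 1 (rank 313), 373 in replicate 2 (rank 626) and 1000.2 in the final list (rank 405). RpL29 had 417 (rank 624), 423 (rank 527) and 840 (rank 533). RpL29 ranked slightly better in replicate 2, as RpLP1 did, and RpS27 clearly better in replicate 1. RpS10b, with 400 (rank 665), 299 (rank 869) and 694 (rank 718), was the only 1 of the 10 strongest with no other protein-coding TSS within 500 bp of its summit.

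Further genes among the 10 strongest encode large subunit proteins. Final signals were 685 for RpL14, 676 for RpL4, whose protein lines the exit tunnel, 672 for RpL7, 622 for RpL34a and 620 for RpL28. Each summit stood within 500 bp of a neighbour's TSS: Nelf-E (a subunit of the negative elongation factor), BCAS2 (a splicing factor), Ripalpha (which encodes a partner of replication protein A), Trmt61 (a tRNA methyltransferase) and eIF1 (a translation initiation factor), in the same order. RpL13, just below these at 551 and rank 1029, shares its promoter with Dref itself. The RpL13 summit lay 24 bp upstream of its own TSS (-24) and 60 bp from that of Dref.

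Many of these promoters were shared with another gene, as were those of other genes. Another protein-coding TSS lay within 500 bp of the summit at 34 of the 69 genes (49.3%), beside 58.0% of all 3511. Median signal was 428 for the 34 that shared and 335 for the 35 that did not. Over all genes the corresponding medians were 313 and 304. A shared peak is counted for each of the genes.

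At the lower end, the final genes of least signal included RpS15Ab with 160 (rank 5571), RpS26 with 169 (rank 5262) and RpL40, which is made as a fusion with ubiquitin, with 196 (rank 4369). The signal at which the final list ended was 148. Outside it lay RpL37-1 with 127 (rank 7236) and RpL15 with 124 (rank 7470). The 16 genes with a candidate that was not final, 8 from each subunit, ran from 42.6 to 141.

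No pooled candidate lay at RpL10Aa, RpL21, RpL22-like, RpL37-2, RpS19b, RpS28a or RpS28-like. All of these except RpL21 are members of a paralogue set. RpL21 had a candidate in replicate 1 alone, with a signal of 28.0 (rank 22403). A missing candidate says that no summit reached the first 30000 regions, not that the protein was absent.

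The replicates ranked these genes in a similar order, with better ranks in replicate 1. The 6091 highest candidates of replicate 1 took in 73 of the 92 genes (79.3%), beside 25.2% of all protein-coding genes. Those of replicate 2 took in 66 (71.7%), beside 24.6%, and all 66 were also in the first set. Across the 69 final genes the signals of the replicates had a Spearman rho of 0.85, the same as across the 3455 genes with a final peak and a candidate in both. Genes in 1 library pair share depth and control, so rho is given as a description only.

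Signal was higher in replicate 1 at 64 of the 69 genes (92.8%), beside 74.0% of all genes, with a median ratio of 1.48 against 1.21. Rank, which does not depend on the scale of the lists, was better in replicate 1 at 56 of the 69 (81.2%), beside 61.2%. Median rank over the family was 1604 in replicate 1 and 2297 in replicate 2, against 2241 and 2542 over all genes. Both subunits had better median ranks in replicate 1, 1613 against 2249.5 for the large and 1582 against 2401 for the small. Fewer small subunit genes reached the first 6091 in replicate 2, 23 against 28 of 38, while the large subunit had 43 against 45 of 54.

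Final genes outside the first 6091 of replicate 2 were all small subunit genes. They included RpS14b at rank 7799, RpS15Ab at 9088 and RpS26 at 10423. No final gene lay outside the first 6091 of replicate 1. In replicate 1 these genes ranked 3349 (RpS14b), 4827 (RpS15Ab) and 4191 (RpS26).

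**Figure D2:**
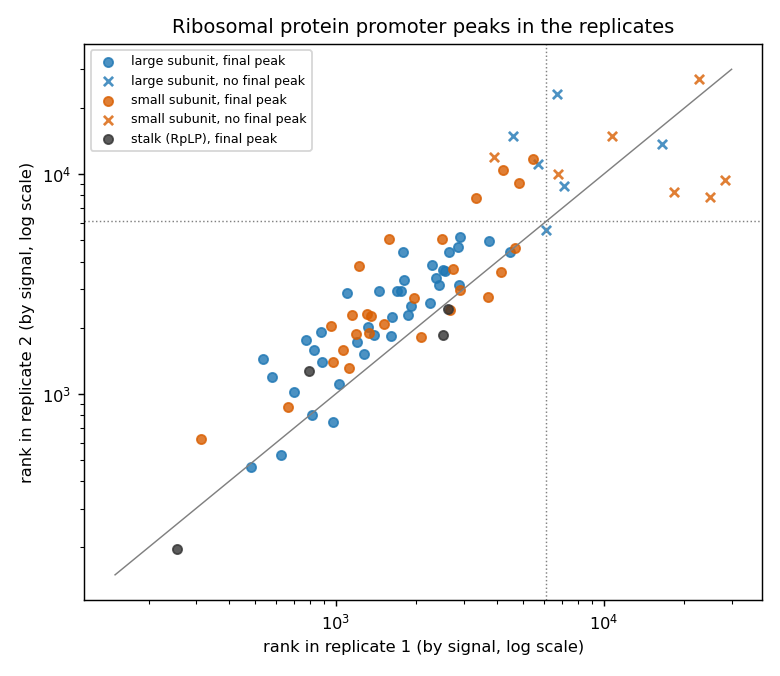
Rank of the promoter peak in replicate 1 (x axis) and replicate 2 (y axis), both log scales, for the 82 ribosomal protein genes with a candidate in both; points have a final peak and crosses do not, the solid line is equal rank and the dotted lines are rank 6091. Most points lie above the line, with better ranks in replicate 1, and 4 small subunit points lie above the dotted line of replicate 2.

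Summits sat close to the start site. The median position from the nearest TSS of the gene was -36 bp, with negative values upstream, quartiles of -80 and -9 and a range of -401 to 49. Over all 3511 genes the median was -143 with quartiles of -247 and -51.5. Within 100 bp of the TSS lay 58 of the 69 summits (84.1%), beside 31.5% of all genes, and within 50 bp lay 62.3% beside 15.2%. The share upstream was much like the background, at 79.7% against 83.9%. Mitochondrial ribosomal protein genes had a median of -127, with 39.5% within 100 bp.

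**Figure D3:**
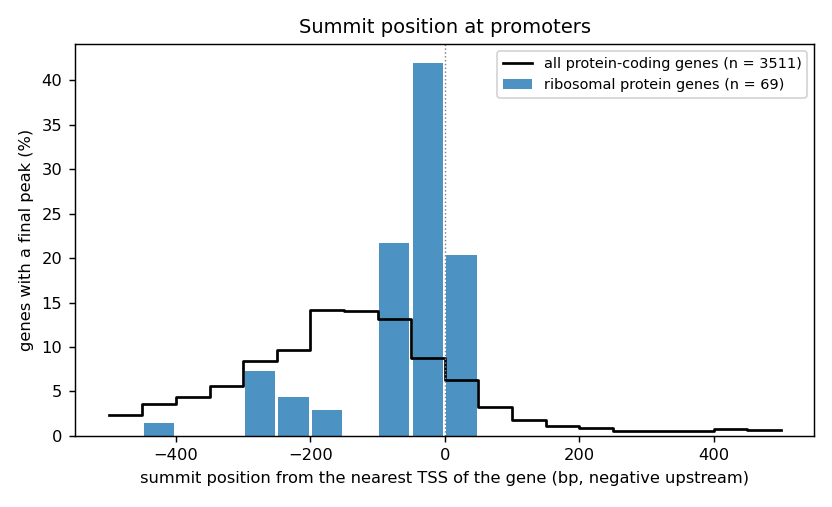
Share of genes with a final peak (y axis, %) by position of the summit from the gene's nearest TSS (x axis, bp, bins of 50 bp); bars are the 69 ribosomal protein genes and the line all 3511 protein-coding genes. The bars gather between -100 and 50 bp around a median of -36, while the line peaks further upstream, with a median of -143.

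Promoters with no other gene in range showed the same placement. Of the 35 genes alone at their summit, 91.4% lay within 100 bp of the TSS at a median of -26, beside 32.8% of the 1473 such genes overall. All 11 summits outside 100 bp were upstream: RpLP1, RpLP2, RpL10Ab, RpL23, RpL29, RpL40, RpS6, RpS14a, RpS15, RpS20 and RpS23. A neighbour's TSS was in range at 8 of these and nearer than the family member's own at 6. The RpLP genes had a median of -171.5, with RpLP0 at -18, RpLP0-like at -100, RpLP1 at -243 and RpLP2 at -258.

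Summit positions moved little between replicates for most genes. The median distance between the replicate summits was 37 bp, beside 35 bp over all genes, and 60.9% were within 50 bp, beside 62.1%. The strongest summits lay furthest apart at RpS23 (-22 in replicate 1, -465 in replicate 2), RpS28b (-45, -425) and RpL15 (-9, 354). Each of these genes had 2 summits within 500 bp of a TSS in replicate 1 and in the pooled list. Their distances can therefore reflect which summit was the strongest in a list, and need not mean that a summit moved. Of the genes with a final peak, 30 had more than 1 final summit in range. At RpS23, a protein of the decoding centre, the pooled summit followed the far position, at -401. At RpS28b it followed the near one, at -47.

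The sequence under the summits differed from that of the strongest peaks. The words were searched on both strands in a window of 50 bp on either side of each summit. ACGTAA occurred at the summits of 104 of the 207 protein-coding genes with a promoter peak of rank 200 or better (50.2%). Over all 3511 genes the share was 10.9%. Genes that share a summit are each counted. None of the 69 ribosomal protein summits held it, a count of 0 that allows a share of up to 4.35%. Restricting the background to the 3284 genes within the family's range of signal gave 8.4%, and to the 1105 genes with a summit within 100 bp of the TSS 14.4%. The related words CGTAAC and TACGTA, which overlap it, were also at 0 of 69, beside 5.84% and 4.22%. ACGTAA was found at 4 of 43 mitochondrial ribosomal protein summits (9.3%).

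Words of the Dref element were frequent instead. ATCGAT was found at 22 of the 69 summits (31.9%, 21.2% to 44.2%), beside 9.77% of all 3511. In a narrower window of 25 bp on either side the shares were 17.4% and 5.1%. Among summits within 100 bp of a TSS the shares were 36.2% of 58 and 18.1% of 1105. The full TATCGATA was at 17.4% against 3.76%, and the shorter CGATA, contained in it, was at 36 summits (52.2%) against 21.4%. Within 100 bp of a TSS these were 20.7% against 7.69% and 53.4% against 32.7%. ATCGAT stood at 12 of 42 large subunit summits (28.6%) and 10 of 27 small subunit summits (37.0%), and at none of the 4 RpLP summits. Median final signal was 415 with ATCGAT and 336 without, and 336 with CGATA and 401 without, so the pair of words gave opposite orders.

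Over whole promoters, from 250 bases before to 50 after the TSS, ATCGAT occurred in 39.1% of the 92 genes and 22.8% of all 13945. It was in 10 of the 23 genes without a final peak (43.5%) and 26 of the 69 with one (37.7%). Where it occurred in a final gene, the copy nearest the summit lay at a median of -45 from the TSS, 28 bp from the summit. A word match describes the letters and does not show that Dref was bound.

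The word that most set the family's summits apart was CCGGAA. It was chosen after ranking the 71 6-base words found at 10 or more of the 69 summits by the ratio of shares, so its values are a description. CCGGAA occurred at 17 summits (24.6%, 15.1% to 36.5%) beside 2.59% of all genes, a ratio of 9.51, and all 17 lay within 100 bp of the TSS. The share depended on the window, at 10.1% against 1.37% with 25 bp on either side and 37.7% against 4.5% with 100 bp. At summits within 100 bp the shares were 29.3% and 3.98%. Over whole promoters it was in 38.0% of the 92 genes and 6.71% of all genes. It was in 30 of the 69 genes with a final peak (43.5%) and 5 of the 23 without (21.7%), a split not tested. Over all genes with a final peak the promoter share was 6.72%. The copy nearest the summit lay a median of 43.5 bp from it, near the edge of the 50 bp window. Its median position was 22.5 bp after the TSS, as at RpL14 above, whereas ATCGAT lay upstream.

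CCGGAA and CGATA stood together at 9 of the 69 summits. Neither of them, nor ATCGAT, was present at 25. CCGGAA was at 12 of 42 large and 5 of 27 small subunit summits, and median signal was 358 with it and 376 without. Among the genes with a final peak, signal was therefore not higher where CCGGAA stood at the summit.

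Other promoter words were rarer. The Motif 1 core, GGTCACACT, was at 4 summits (5.8%) beside 1.59%, namely RpL7, RpLP0, RpL27A and RpL37A, and in 10.9% of the 92 promoters beside 5.86% of all. By peak status it was in 14.5% of the 69 promoters with a final peak and 0.0% of the 23 without. Over all genes with a final peak the promoter share was 8.83%. The E-box CACGTG was at 3 summits (4.35%) beside 0.769%. TATAAA was at 10.1% against 23.9%, and the GAGA word GAGAG at 2.9% against 7.35%. Among summits within 100 bp of a TSS these were 10.3% against 16.9% and 1.72% against 7.51%. Over whole promoters TATAAA was in 44.6% of the 92 genes and 45.6% of all genes, so the lower share held at the summits and not over the promoter, and GAGAG was in 16.3% against 30.8%. Both forms of the Ohler 7 core, CATCNCT and CAGCNCT, were at 13.0% of summits, beside 5.5% and 6.32%. Among summits within 100 bp of a TSS the gaps were smaller, at 12.1% against 8.24% for CATCNCT and 15.5% against 11.3% for CAGCNCT. At the summits the Ohler 6 core GTATNTTT (7.25% against 6.66%) was near its background. Over whole promoters it was in 27.2% of the 92 genes and 14.6% of all genes. The Adf1-type triplets GCNGCNGC were at 3 summits (4.35% against 1.54%), and over whole promoters in 7.61% against 9.57%.

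Summit windows of the family were also richer in G and C, at a mean of 44.1% against 33.9% over all genes, and at 46.7% against 39.0% within 100 bp of a TSS. The part of base composition in the word shares was not tested.

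**Figure D4:**
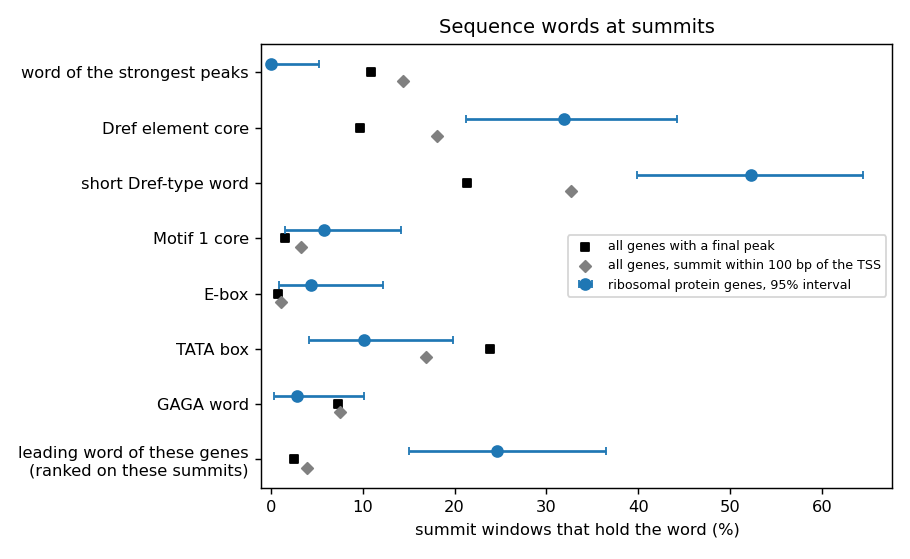
Share of summit windows (x axis, %) that hold each named word, with the 69 ribosomal protein genes as circles with exact 95% intervals, all 3511 genes with a final peak as squares, and the 1105 with a summit within 100 bp of the TSS as diamonds. The word of the strongest peaks stands at 0 for the family, and the Dref words and the leading word of the family lie to the right of both backgrounds.

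The TCT initiator marked the family whether or not a peak was called. CTTTC or CTTTT started within 10 bp of the TSS, on the gene strand, in 61 of the 92 genes (66.3%, 55.7% to 75.8%). The share was 6.86% over all 13945 protein-coding genes, 8.32% over the 3511 with a final peak, and 3 of 73 mitochondrial ribosomal protein genes (4.11%). Within the family it was present at 47 of the 69 genes with a final peak (68.1%) and 14 of the 23 without (60.9%). The large subunit had it at 38 of 54 genes and the small at 23 of 38. The run started at a median of 4 bp after the annotated TSS. It began at the annotated TSS itself in 1 of the 61 genes and within 2 bp of it in 11. A match therefore does not show that transcription starts in the run.

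Paralogue sets often had 1 called copy. The sets were formed by symbol, and every gene of a set is termed a copy here. This includes -like genes such as RpL24-like and RpLP0-like, which need not be second copies of a ribosomal protein. The 27 genes in 13 paralogue sets had 16 final peaks (59.3%, 38.8% to 77.6%), against 53 of the 65 genes in no set (81.5%, 70.0% to 90.1%). In 4 sets every gene had a final peak, in 8 sets 1 gene did, and in the RpL37 set none did. Repeated sequence was scarce near these start sites. Only 3 of the 92 genes had any repeated 36-base word within 250 bp of the TSS, none had over 50% of such words repeated, and RpS15Ab had 10.3%.

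Both copies were called in the RpL34, RpLP0, RpS14 and RpS15A sets. RpL34a and RpL34b, with final signals of 622 and 531, were close in level. Replicate signals were 314 and 330 for RpL34a and 349 and 198 for RpL34b, in replicates 1 and 2. RpLP0, the base of the stalk, had 359 and 234 in the replicates and 597 in the final list, above RpLP0-like with 163, 178 and 328. The RpLP0-like summit lay 13 bp from the TSS of 14-3-3zeta, a signalling adaptor gene.

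The remaining sets with both copies called had a stronger and a weaker member. RpS14a had 236, 163 and 383 in replicate 1, replicate 2 and the final list, and RpS14b had 132, 61.7 and 197. RpS15Aa had 165, 86.5 and 235, and RpS15Ab had 99.4, 54.8 and 160. In both sets the order of the copies was the same in each replicate. The stronger of 2 final summits at RpS14a lay at -258 from its own TSS and 133 bp from that of Dhdds. The RpS15Ab summit lay at -19 from its own TSS and 17 bp from that of Lsm10. These 2 peaks cannot be given to the paralogue alone, though the call of RpS14a did not rest on that summit only.

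Sets with 1 called copy held some of the sharpest contrasts in the family. RpS10b was at 694 in the pooled list and RpS10a, at 81.6 (rank 11844), was a candidate only, with 48.3 and 36.6 in the replicates. RpS5a had 283, 154 and 423, against 27.8, 22.2 and 60.6 for RpS5b, the copy known from the ovary. RpL7 had 455, 213 and 672, while RpL7-like had no candidate in replicate 1, 42.5 in replicate 2 and 57.4 in the pooled list. RpL24 had 290, 129 and 421, and RpL24-like had 34.5, 39.2 and 49.5. The copy without a final peak was below its partner in both replicates in each of these sets.

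In the other 4 such sets the second copy had no candidate in any list. RpS19a was at 260, 153 and 409 in replicate 1, replicate 2 and the final list, RpL22 at 203, 154 and 336, RpS28b at 272, 106 and 370 and RpL10Ab at 178, 141 and 307. Their partners RpS19b, RpL22-like, RpS28a, RpS28-like and RpL10Aa were absent from the candidates. RpL10Ab had 2 final summits within 500 bp, and the stronger was 290 bp upstream of its TSS and 286 bp from the nearest neighbouring TSS. With summits within 250 bp the large subunit share stayed at 77.8%, so the call did not rest on that summit alone. In the RpL37 set RpL37-1 had 104 (rank 4602), 36.4 (rank 14943) and 127, and RpL37-2 had no candidate.

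**Figure D5:**
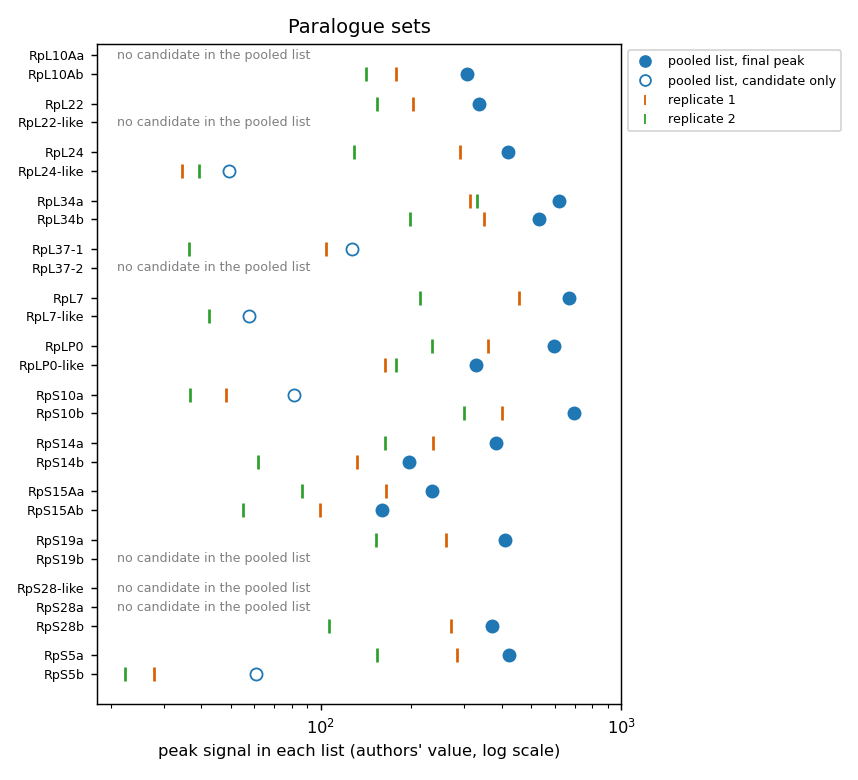
Peak signal (x axis, authors' value, log scale) of the 27 genes of the 13 paralogue sets; circles give the pooled list, filled where the peak is final, and ticks give replicate 1 and replicate 2, which are on their own scales. In 8 sets 1 circle is filled, and 6 genes have no pooled candidate.

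The promoters of the RpS19 and RpL10A sets are shown because 1 copy of each pair was called and the other had no candidate. Windows and capitals are as before. The called copies held the Dref core, CGATA and a TCT initiator, and RpS19a also CCGGAA. RpS19b held CGATA in the stretch shown, and CCGGAA elsewhere in its promoter window. RpL10Aa held none of the words. The RpL10Ab summit, at -290, lay outside the stretch shown, and its summit window held neither ATCGAT nor CGATA. The positions are RpS19a at chrX:16637774-16637918 (plus strand), RpS19b at chr3R:23933506-23933650 (minus), RpL10Ab at chr3L:11822731-11822875 (plus) and RpL10Aa at chr3R:15037246-15037390 (plus).
RpS19a: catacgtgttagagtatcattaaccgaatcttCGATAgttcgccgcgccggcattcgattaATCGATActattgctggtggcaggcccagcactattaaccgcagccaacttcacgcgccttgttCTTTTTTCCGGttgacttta
RpS19b: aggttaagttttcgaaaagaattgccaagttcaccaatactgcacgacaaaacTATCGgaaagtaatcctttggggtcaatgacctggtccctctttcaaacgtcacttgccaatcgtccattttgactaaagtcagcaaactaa
RpL10Ab: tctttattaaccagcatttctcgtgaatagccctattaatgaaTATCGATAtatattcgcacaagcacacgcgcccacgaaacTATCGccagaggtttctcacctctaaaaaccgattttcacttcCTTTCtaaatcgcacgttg
RpL10Aa: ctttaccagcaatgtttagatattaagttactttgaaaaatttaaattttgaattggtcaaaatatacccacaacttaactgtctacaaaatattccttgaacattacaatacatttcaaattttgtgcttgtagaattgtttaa

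These pairs do not stand for all sets. Over the 16 paralogues with a final peak, 14 had CGATA in the promoter window, 10 had a TCT initiator and 5 had CCGGAA. Over the 11 without, the counts were 7, 4 and 3. RpL37-2 and RpS28-like had ATCGAT in the promoter and no candidate, and RpL24, at 421, had none of these words, ATCGAT included.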

How the data were processed

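Peak lists from ChIP-seq on 2 biological replicates were used. Per the labels, the assembly is dm6 and chromatin was sonicated to 200 to 800 bp. Not given in the sources used here are the aligner, the caller and the cutoff on irreproducible discovery rate. Each replicate has 30000 candidate regions as deposited, the pooled data have as many, and 6091 form the final list. Each region's signal is the authors' value and was used to describe and rank regions within its list. The authors' −log10 q value, capped at a maximum in the deposited lists, was not used. The deposited summit offset, another value of each region, gave the summit. Depth is unknown, and 0 per-sample columns were left unmapped.

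Summits were placed on the TSSs of the Ensembl annotation (release 115, BDGP6.54), all regions lying inside the chromosome lengths of the RefSeq dm6 sequence. A gene took its strongest summit within 500 bp of a TSS. Software was matplotlib 3.10.9, numpy 2.4.6, scipy 1.17.1 and pandas 2.3.3 under Python 3.11.15, and the assignment of summits and the word search were tested on simulated data. Shares have exact Clopper-Pearson 95% intervals, and the limit for a count of 0 is 3 counts of the total. Intervals cover counting only.

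The members and lists were chosen with earlier results of these data known, and no test was made. The genes named are the 10 of highest and 5 of lowest final signal, all paralogues, those with no candidate, the 3 highest candidates that were not final and the 3 with replicate summits furthest apart. Some genes that this rule takes are not reported here. RpL13 and genes named for a count (word, position, rank in replicate 2) were chosen after their values were seen. CCGGAA was too. Alternatives changed the distance, TSS, list, word window and counting of paralogues.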

Additional observations from a re-analysis of the deposited data

How the results depend on the processing

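Summit distances of 250 and 1000 bp, the nearest TSS only, and paralogue sets counted once left the counts and shares of genes with a final peak within 1.5 times or inside the 95% interval of the value reported. With the higher-signal 3045 final peaks the small subunit share was 47.4% and the large 66.7%, beside 15.5% of all protein-coding genes. Taking the TSS shared by most transcripts moved the median summit position to -49. Windows of 25 bp to each side of the summit gave ATCGAT at 17.4% (5.1% of all genes with a final peak) and CCGGAA at 10.1% (1.37%), and windows of 100 bp gave CCGGAA at 37.7% (4.5%). With 100 bp, ACGTAA was at 4.35% (17.5%).

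Using the first 6091 candidates of 1 replicate in place of the final list gave 66 to 73 genes, 79.6% to 83.3% of large and 60.5% to 73.7% of small subunit genes, and a median rank of 1688 to 2276. The median position ran from -41 to -23.5, the share upstream from 78.8% to 86.3%, ACGTAA from 0.0% to 1.52%, ATCGAT from 22.7% to 28.8% and the Motif 1 core from 6.85% to 9.09%. No value reversed. No paired analysis was possible because the replicates form 1 group. Alternatives that use genes alone at their summit, summits within 100 bp, and other windows for CCGGAA were chosen after seeing the data. With no read depth or control values, a missing candidate could not be told apart from low coverage.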

Other observations

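Ribosomal protein genes that host small nucleolar RNAs (snoRNAs), the guides of ribosomal RNA modification, were often called. Of the 28 genes with a snoRNA gene inside their span on the same strand, 24 had a final peak (85.7%, 67.3% to 96.0%), beside 45 of the 64 others (70.3%, 57.6% to 81.1%). The only hosts in a paralogue set were RpL10Ab, RpL22 and RpS5a. Genes in a set had a final peak less often than genes in none (59.3% against 81.5%). The host split is therefore mixed with the paralogue split, and it was not tested. The 28 genes hold 74 snoRNA genes, 14 of them in RpS5a. Median signal was 356 for the hosts with a final peak and 370 for the others.

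On chromosome arm 3R a final peak was found at 12 of 23 ribosomal protein genes (52.2%), beside 57 of 69 (82.6%) on the other arms. Over all protein-coding genes the shares were 26.2% and 24.9%. Outside the paralogue sets the counts were 10 of 15 on 3R and 43 of 50 elsewhere, and within the sets 2 of 8 and 14 of 19. This split was noticed in the data and was not tested.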
